A study of Mus musculus with 24 samples.

Results

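The levels of liver transcripts reached under ligand were compared between newborn mice that carry human CAR and received CITCO and newborn wild-type mice that received TCPOBOP. The comparison took 6 of the 24 RNA-seq libraries in the study, and it was made as the level with CITCO minus the level with TCPOBOP on log2(FPKM + 1), where FPKM is the number of sequenced fragments of a gene scaled by transcript length and by library size. Because no corn oil library entered the difference, it describes where each transcript ended and not how far it had moved. The measured genes were all those that reached 1 FPKM in at least 3 of the 24 libraries, which left 12282 of 24339 genes. At that limit the third-highest value was 1.0006 FPKM for Trmt44, which was kept, and 0.999 FPKM for Kcne3, which was not.

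The 3 libraries of hCAR-TG Day5 CITCO were livers of 5-day-old mice with the human CAR knock-in given CITCO, and the 3 libraries of WT Day5 TCPOBOP were livers of wild-type mice of the same age given TCPOBOP. All animals were C57BL/6. Further groups of 3 libraries served as reference: corn oil in each genotype at day 5, and the same pair of ligand treatments at day 60. All 24 libraries in 8 groups, with corn oil at day 60 included, set the estimate of each gene's spread. Standard errors, intervals and p-values of the main fit rest on that shared spread and not on the 6 compared libraries alone. The labels give no dose, no interval between dosing and collection, no sex and no litter. Nothing states that the 3 libraries of a group came from separate animals. The p-values therefore measure the spread between samples within the 8 groups, which may be technical. Genotype and ligand changed together, since neither ligand was given to the other genotype. The final number of the read-file name also differed between the groups, at 4 in every TCPOBOP library and 5 in every CITCO library, and what it stands for is not given. A difference between the groups therefore belongs to the receptor, the ligand, the genetic background of the line and this file number jointly, and these cannot be told apart. A fit with the file number as a factor was made beside the main one. It separates numbers 4 and 5 only through the 3 hCAR-TG corn oil libraries of day 5, where replicate 3 has number 5 and also carries intestinal transcripts.

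CAR, encoded by Nr1i3, is a nuclear receptor of hepatocytes that senses foreign chemicals and, as a partner of RXR, switches on genes for oxidation, conjugation and export of drugs. TCPOBOP activates the mouse receptor and has little action on the human one, while CITCO activates the human receptor, which is why mice with human CAR are used to ask what the human receptor does in an intact liver. Classical targets are Cyp2b10, Cyp2c and Cyp3a enzymes, glutathione S-transferases, UDP-glucuronosyltransferases, sulfotransferases and the efflux pumps of the Abcc family.

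All 6 libraries were labelled as liver. Alb, the main plasma protein of hepatocytes, was at 32488, 30972 and 35842 FPKM with TCPOBOP and at 43003, 41110.0 and 44021 FPKM with CITCO, all of the latter higher (log2 difference 0.37 ± 0.11, limma adjusted p = 0.008, and 0.32, limma adjusted p = 0.081 without the libraries that carry the pancreatic transcripts described next). Total FPKM per library lay between 451546 and 496665. Depth was read from the widths of the deposited confidence intervals, relative to each gene's geometric mean over the 24 libraries. This relative depth lay between 0.987 and 1.104. Pancreatic transcripts were present in TCPOBOP replicate 2 and CITCO replicate 1: Ctrb1, a digestive protease precursor, read 14.5, 191 and 6.99 FPKM with TCPOBOP and 167, 0.210 and 1.72 FPKM with CITCO. Among the reference libraries, WT corn oil replicate 2 of day 5 carried them too. Its summed pancreatic markers were at 409.64 FPKM, against 52.9 and 18.5 FPKM in replicates 1 and 3. Settings below without the libraries that carry pancreatic transcripts left out only TCPOBOP replicate 2 and CITCO replicate 1. Intestinal transcripts set 1 reference library, corn oil hCAR-TG replicate 3, apart from its group. In bulk liver, fewer cells of a type and less RNA per cell cannot be told apart.

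Induced levels differed widely between the newborn groups, and the large differences lay mainly on the low side. With limma and Benjamini-Hochberg adjustment, 5252 genes (42.8%) differed at an adjusted p below 0.05, of which 2451 (20%) were higher with CITCO and 2801 (22.8%) were lower. Most were small, with a median size of 0.37 on the log2 scale among called genes against a median standard error of 0.09 over all genes. Differences of at least 2-fold numbered 105 higher (0.855%) and 223 lower (1.82%). At 4-fold the counts were 11 higher (0.0896%) and 45 lower (0.366%). The median over all tested genes was 0.0036. With the read-file number as a factor 3185 genes were higher and 2798 lower. Without both libraries that carry pancreatic transcripts 1413 were higher and 2271 lower, so list counts in that setting stand beside fewer calls. For each gene below that passed the test, all 3 CITCO libraries lay on the same side of all 3 TCPOBOP libraries, as they did for 59.6% of all tested genes. Counts of called genes in the lists below are to be read beside the shares of all tested genes, 20% higher and 22.8% lower. At 2-fold these shares were 0.855% and 1.82%, and under corn oil at day 5 they were 8.29% higher and 2.27% lower. Values in brackets are log2 differences with their standard errors.

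**Figure D1:**
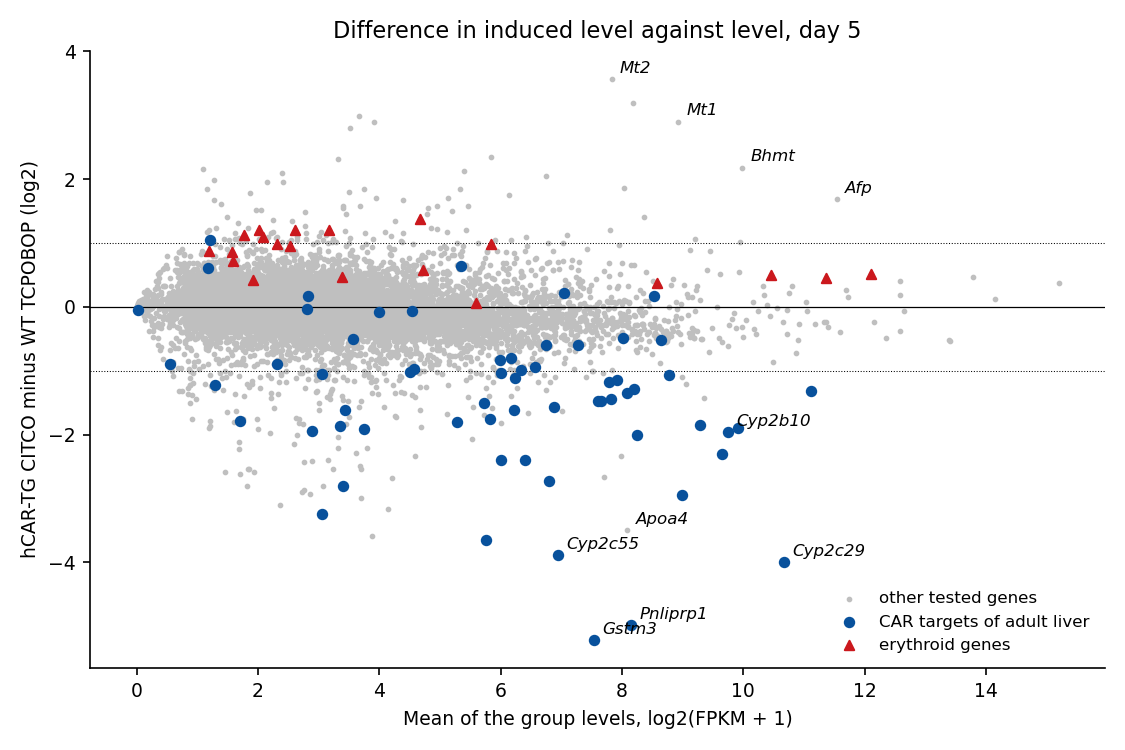
Each point is 1 tested gene, with the mean of its levels in both newborn ligand groups on the horizontal axis (log2(FPKM + 1)) and the CITCO minus TCPOBOP difference (log2) on the vertical axis, and dotted lines mark 2-fold. CAR targets (blue) reach from -5.21 for Gstm3 to 1.05 for Cyp1a1, while 17 of 20 erythroid genes (red) were called above 0.

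Nr1i3 transcript was higher with CITCO. It measured 13.5, 17.9 and 15.6 FPKM with TCPOBOP and 28.6, 33.97 and 33.4 FPKM with CITCO, and the groups did not overlap (log2 difference 0.99 ± 0.18, limma adjusted p = 0.00023). Under corn oil the order was the opposite, at 68.6, 61.6 and 43.8 FPKM in WT and 18.7, 20.4 and 27.7 FPKM in hCAR-TG (-1.34 ± 0.18, limma adjusted p = 4.4e-05). How much of the human transgene transcript is counted as mouse Nr1i3 is not known, so the value in hCAR-TG liver is not a measure of receptor amount. With the read-file number as a factor the Nr1i3 difference was not called (0.51, limma adjusted p = 0.21). Nr1i2, which encodes PXR, a related sensor that shares many targets with CAR, was at 23.6 to 24.3 FPKM with TCPOBOP and 24.7 to 25.5 FPKM with CITCO (log2 difference 0.07, -0.16 to 0.3, limma adjusted p = 0.64, where the range is the 95% confidence interval), and it was lower with the read-file number as a factor (-0.44, limma adjusted p = 0.019). Of 38 tested nuclear receptors and partners, 9 were higher (23.7%) and 5 lower (13.2%), against 20% and 22.8% of all genes. With the read-file number as a factor the counts were 11 and 8. Ppara, the receptor that drives fatty acid oxidation, was at 26.01, 27.2 and 24.5 FPKM with TCPOBOP and 45.4, 45.8 and 43.5 FPKM with CITCO (log2 difference 0.77 ± 0.13, limma adjusted p = 7.8e-05). Nr1h3, an oxysterol receptor, was at 36.2, 40.5 and 38.3 FPKM with TCPOBOP and lower with CITCO at 29.9, 28.5 and 28.2 FPKM (log2 difference -0.4 ± 0.07, limma adjusted p = 9.2e-05). Genes that lie beside Nr1i3 also differed in newborns, with 14 of 23 neighbours lower (60.9%) and 2 higher (8.7%) with CITCO. Under corn oil 10 were lower and 1 higher, where 2.27% of all genes were lower and 8.29% higher. In the ligand groups of day 60, 7 were lower and 5 higher, where 30.6% of all genes were lower and 13.1% higher. Nnt, which is mutated in some C57BL/6 colonies, was at 20.3 to 21.4 FPKM with TCPOBOP and 19.9 to 21.01 FPKM with CITCO (log2 difference -0.04, -0.18 to 0.11, limma adjusted p = 0.72).

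Listed CAR targets ended lower with CITCO in human CAR newborns than with TCPOBOP in wild-type newborns, with few exceptions. The list is of CAR targets of adult liver and was chosen with earlier results of these data known. Its counts therefore describe the listed genes and are not an independent test. Of 62 tested targets, 51 were lower (82.3%) and 1 was higher (1.61%), against 22.8% and 20% of all genes. Of the lower ones, 40 were so by at least 2-fold, as were 1.82% of all genes. The median difference was -1.3, against 0.0036 over all genes. Together the 63 listed targets made up 5.81%, 5.79% and 5.96% of all FPKM in the TCPOBOP libraries, and 1.52%, 1.57% and 1.72% in the CITCO libraries. The corresponding share under corn oil was 0.589% to 0.610% in WT and 0.519% to 0.559% in hCAR-TG, so every CITCO library lay between the corn oil libraries and the TCPOBOP libraries.

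**Figure D2:**
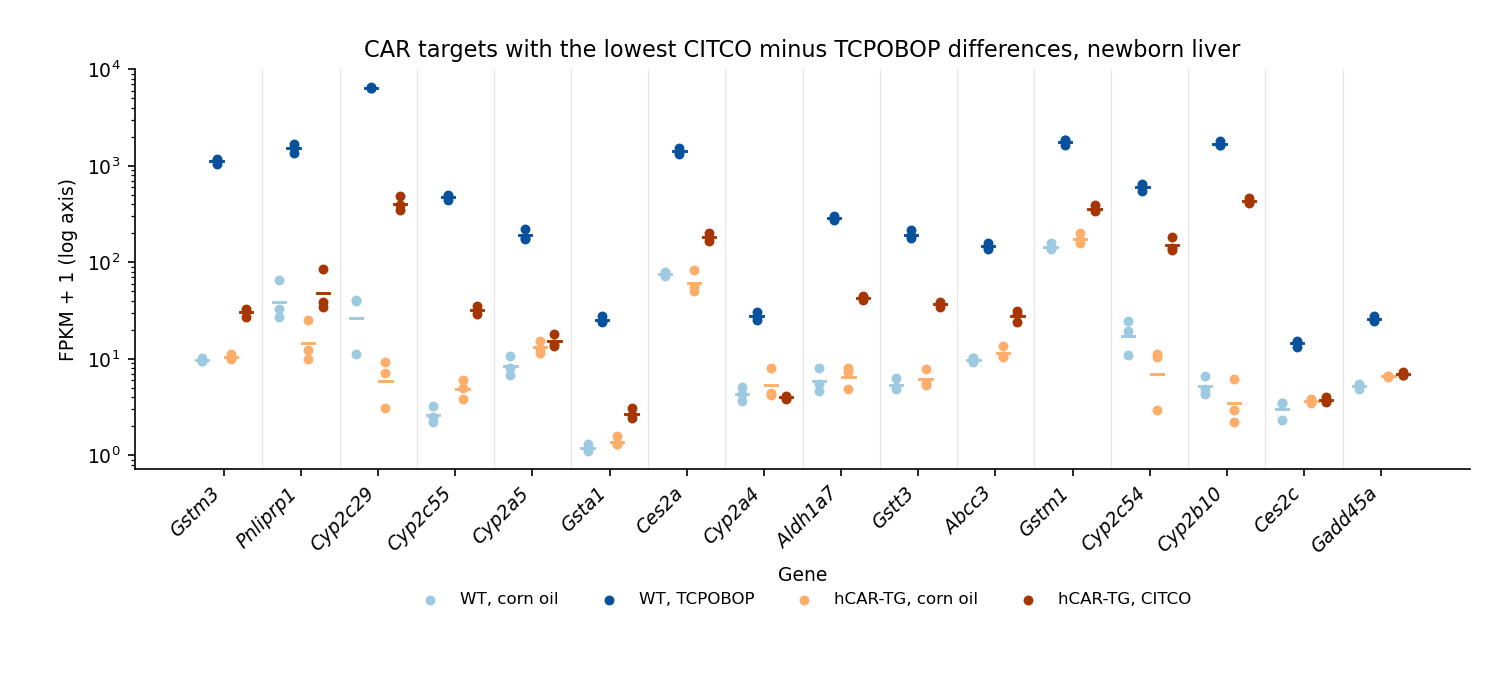
Points are single libraries and short bars are means of log2(FPKM + 1), for the 16 CAR targets with the lowest CITCO minus TCPOBOP differences in the 4 newborn groups, on a log axis of FPKM + 1. TCPOBOP libraries (dark blue) lie above CITCO libraries (dark orange) for all 16 genes, while CITCO libraries of Cyp2a4, Ces2c and Gadd45a lie near their own corn oil libraries.

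Among the CYP2B enzymes, Cyp2b10, the marker enzyme of CAR activation, measured 1636, 1788 and 1658 FPKM with TCPOBOP and 413, 426 and 467 FPKM with CITCO. The groups did not overlap, and the TCPOBOP mean was 3.89-fold the CITCO mean (log2 difference -1.96 ± 0.26, limma adjusted p = 7.3e-06). Starting levels under corn oil were 3.30, 5.57 and 3.92 FPKM in WT and 5.22, 1.22 and 1.98 FPKM in hCAR-TG, and the ligand difference lay below the corn oil difference by a log2 value of -1.37 ± 0.36, limma adjusted p = 0.0075. That test of ligand difference minus corn oil difference called 33.7% of all genes. Cyp2b13, a close relative, was at 81.4, 91.8 and 89.9 FPKM with TCPOBOP and 29.7, 29.2 and 32.2 FPKM with CITCO (log2 difference -1.5 ± 0.19, limma adjusted p = 4.2e-06). Cyp2b9, known as a female-predominant enzyme of adult liver, did not pass the test, at 115, 137 and 113 FPKM with TCPOBOP and 137, 145 and 144 FPKM with CITCO (log2 difference 0.22, -1.01 to 1.45, limma adjusted p = 0.79). Reads shared between the Cyp2b copies could have been divided between them by the counting, and the same holds for the Cyp2a, Cyp2c, Cyp3a, Gsta, Gstm, Sult2a and Ugt1a families described next.

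Cyp2c29, an epoxygenase of arachidonic acid and the most abundant CAR target in the TCPOBOP libraries, was at 6382, 6397 and 6531 FPKM with TCPOBOP, where it ranked 8 among all genes by mean level. With CITCO it was at 348, 389 and 492 FPKM and ranked 108 (log2 difference -3.99 ± 0.39, limma adjusted p = 3.2e-07). It was also lower in hCAR-TG without ligand, with 40.1, 39.1 and 10.4 FPKM in WT and 6.19, 2.13 and 8.28 FPKM in hCAR-TG under corn oil (-2.16 ± 0.39, limma adjusted p = 0.0012). Cyp2c55, an enzyme that is barely present in untreated liver, was at 483, 442 and 495 FPKM with TCPOBOP and 30.95, 27.98 and 34.7 FPKM with CITCO (log2 difference -3.88 ± 0.16, limma adjusted p = 5.2e-13). Its corn oil levels went the other way, at 1.48, 2.27 and 1.24 FPKM in WT and 2.80, 3.95 and 4.99 FPKM in hCAR-TG (0.88 ± 0.16, limma adjusted p = 0.0011). Cyp2c37, Cyp2c50 and Cyp2c54, members of the same cluster, were lower with CITCO at -1.85, -1.89 and -2.01 (log2), and lower under corn oil at -1.1, -1.58 and -1.29. For these 3 genes the ligand difference was not called apart from the corn oil difference, with limma adjusted p = 0.18, 0.71 and 0.31.

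In the CYP2A and CYP3A families, Cyp2a5, the coumarin hydroxylase, was at 174, 179.6 and 219 FPKM with TCPOBOP and 12.5, 13.4 and 16.9 FPKM with CITCO (log2 difference -3.65 ± 0.22, limma adjusted p = 1.8e-10). Its CITCO libraries overlapped its own corn oil libraries, which read 10.5, 11.7 and 14.5 FPKM. Cyp3a11, the main drug-oxidising CYP3A of mouse liver, was high in both groups, at 3536, 3299.7 and 3650.3 FPKM with TCPOBOP and 1331, 1377 and 1505 FPKM with CITCO, a 2.49-fold distance (log2 difference -1.32 ± 0.11, limma adjusted p = 1.5e-08). Cyp3a13 was lower at -1.62 and Cyp3a25 at -0.6 (log2), the latter no longer called with the read-file number as a factor (-0.37, limma adjusted p = 0.055). Cyp1a1, the polycyclic hydrocarbon oxidase, was the exception among the targets: it was at 0.585, 0.610 and 0.629 FPKM with TCPOBOP and 2.35, 2.35 and 2.28 FPKM with CITCO (log2 difference 1.05 ± 0.06, limma adjusted p = 2.2e-11). Cyp1a2, its constitutive hepatic relative, did not pass the test at 321 to 378 against 383 to 399 FPKM (log2 difference 0.17, -0.08 to 0.41, limma adjusted p = 0.27).

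Of all 67 tested P450 enzymes, 35 were lower (52.2%) and 12 higher (17.9%), against 22.8% and 20% of all genes. The median difference was -0.28. The higher count fell to 4 when the read-file number was held as a factor. Cyp2c39, a Cyp2c enzyme outside the target list, was at 5.47, 6.47 and 5.90 FPKM with TCPOBOP and 0.582, 0.341 and 0.543 FPKM with CITCO (log2 difference -2.22 ± 0.1, limma adjusted p = 1.4e-12). Cyp2c53-ps, a pseudogene of the cluster that shares sequence with its coding neighbours, read 45.96 to 51.7 against 2.98 to 3.74 FPKM (log2 difference -3.58 ± 0.09, limma adjusted p = 6.8e-17). Enzymes of the CYP4A family, which oxidise the omega end of fatty acids, went the other way. Cyp4a10 was at 45.9, 50.4 and 59.5 FPKM with TCPOBOP and 191, 221 and 244 FPKM with CITCO (log2 difference 2.05 ± 0.37, limma adjusted p = 0.00028). Cyp4a14 was at 122, 144 and 146 FPKM with TCPOBOP and 477, 505 and 515 FPKM with CITCO (log2 difference 1.86 ± 0.56, limma adjusted p = 0.014). Neither Cyp4a difference was called with the read-file number as a factor (1.04, limma adjusted p = 0.19 and 0.97, limma adjusted p = 0.45), nor Cyp4a14 without the libraries that carry pancreatic transcripts (1.93, limma adjusted p = 0.057). Cyp2d26, an abundant CYP2D enzyme, stayed near 462 and 489 FPKM (log2 difference 0.08, -0.09 to 0.26, limma adjusted p = 0.45).

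Other oxidising and hydrolysing enzymes, some of them CAR targets themselves, were mostly lower. Of 74 tested, 43 were lower (58.1%) and 12 higher (16.2%) with CITCO (median -0.34), against 22.8% and 20% of all genes. Ces2a, a carboxylesterase that hydrolyses ester drugs, was at 1315, 1386 and 1548 FPKM with TCPOBOP and 182, 164 and 202 FPKM with CITCO (log2 difference -2.95 ± 0.12, limma adjusted p = 3.2e-13). Ces2c, of the same cluster, was at 12.4, 13.8 and 14.2 against 2.70, 2.56 and 3.04 FPKM (log2 difference -1.94 ± 0.16, limma adjusted p = 1.5e-08), and its CITCO libraries overlapped the hCAR-TG corn oil libraries, which read 2.50 to 2.84 FPKM. Aldh1a7, an aldehyde dehydrogenase close to Aldh1a1, was at 278, 305 and 274 against 39.6, 42.7 and 43.8 FPKM (log2 difference -2.73 ± 0.17, limma adjusted p = 1.3e-10). Aldh1a1, which makes retinoic acid, was lower at -1.76 and Ephx1, the microsomal epoxide hydrolase, at -1.35 (log2). Pnliprp1, a lipase-related protein best known from pancreas, was at 1356, 1563 and 1689.8 FPKM with TCPOBOP and 84.9, 33.5 and 37.5 FPKM with CITCO (log2 difference -4.98 ± 0.35, limma adjusted p = 3.8e-09). The CITCO library with pancreatic transcripts, replicate 1, was the highest of its group, and without both libraries that carry such transcripts the log2 difference was -5.38, limma adjusted p = 1.9e-08. Pon1 and Cbr1, abundant enzymes of this list, did not pass the test, with log2 differences of -0.17 (-0.34 to -0.01) and 0.01 (-0.25 to 0.26).

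Glutathione S-transferases, which attach glutathione to reactive compounds, held the largest single difference when all 6 libraries were used. Gstm3 was at 1033, 1187 and 1158 FPKM with TCPOBOP and 30.3, 26.1 and 31.9 FPKM with CITCO. The TCPOBOP mean was 38.3-fold the CITCO mean, and the groups did not overlap (log2 difference -5.21 ± 0.14, limma adjusted p = 3.3e-16). Corn oil levels overlapped, at 8.56 to 9.23 FPKM in WT and 9.03 to 10.3 FPKM in hCAR-TG, and Gstm3 stood 128-fold above its own corn oil mean with TCPOBOP and 3.09-fold above it with CITCO. Gstm1, the most abundant of the family in the TCPOBOP libraries, was at 1638, 1873 and 1839.9 against 340.1, 350.3 and 392 FPKM (log2 difference -2.3 ± 0.11, limma adjusted p = 1.3e-12). Gsta1 was at 23.2, 26.6 and 23.4 against 1.41, 1.60 and 2.11 FPKM (log2 difference -3.24 ± 0.18, limma adjusted p = 4.5e-11). Gstt3, a theta-class member, was at 176, 213 and 185 against 36.3, 33.3 and 37.6 FPKM (log2 difference -2.39 ± 0.26, limma adjusted p = 1.1e-06). Over the family, 13 of 25 tested members were lower (52%) and 1 higher (4%), against 22.8% and 20% of all genes. The median was -0.74, and 10 were lower by at least 2-fold, as were 1.82% of all genes. Mgst1, the abundant microsomal enzyme, read 853 to 1012 against 838 to 940.1 FPKM (log2 difference -0.09, -0.3 to 0.13, limma adjusted p = 0.52), and Gstp1, the pi-class enzyme, read 272 to 352 against 209 to 222 FPKM (log2 difference -0.49, -0.92 to -0.07, limma adjusted p = 0.059). Neither passed the test, though Gstp1 was called lower with the read-file number as a factor (-1.04, limma adjusted p = 0.032).

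Among glucuronidation and sulfation enzymes, Ugt1a1, which conjugates bilirubin, was at 347, 356 and 372 FPKM with TCPOBOP and 157, 163 and 166 FPKM with CITCO (log2 difference -1.14 ± 0.1, limma adjusted p = 4.1e-08). Ugt2b36 was at 387, 335 and 387 against 131, 135 and 141 FPKM (log2 difference -1.44 ± 0.09, limma adjusted p = 1.8e-10). Of 19 UDP-glucuronosyltransferases, 7 were lower (36.8%) and 2 higher (10.5%), against 22.8% and 20% of all genes. Ugt2b1 and Ugt2b5, both abundant, did not pass the test (-0.29 and -0.14, log2). Of 18 sulfotransferases, 11 were lower (61.1%) and 0 higher (median -0.56), and the lower count was 7 with the read-file number as a factor. Sult2a1, which sulfates bile acids and steroids, was at 618, 612 and 670.2 FPKM with TCPOBOP and 287, 294 and 329 FPKM with CITCO (log2 difference -1.06 ± 0.18, limma adjusted p = 0.0001). It was also lower under corn oil, at 182, 161 and 119 FPKM in WT and 65.4, 77.1 and 99.6 FPKM in hCAR-TG (-0.92 ± 0.18, limma adjusted p = 0.0017), and the ligand and corn oil differences were not called apart (limma adjusted p = 0.7). Sult2a5, a neighbouring copy, was lower at -0.6 with ligand and at -1.44 under corn oil, and here the ligand difference was the smaller one (0.84 ± 0.14, limma adjusted p = 0.00018). The ligand difference of Sult2a5 was -0.08 and not called with the read-file number as a factor. Sult5a1 was at 10.4 to 12.9 FPKM with TCPOBOP and 2.27 to 2.88 FPKM with CITCO (log2 difference -1.83 ± 0.17, limma adjusted p = 4.8e-08). Among the remaining conjugation enzymes, Inmt, an indole N-methyltransferase, was at 529, 673 and 502 against 99.6, 107 and 129.5 FPKM (log2 difference -2.33 ± 0.22, limma adjusted p = 7.8e-08), and Ggt1, which breaks down glutathione conjugates, was at 13.5, 14.8 and 15.8 against 1.87, 1.80 and 2.12 FPKM (log2 difference -2.42 ± 0.13, limma adjusted p = 6.8e-12).

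Efflux and uptake transporters held genes that differed in either direction. Of 19 efflux transporters, 8 were lower (42.1%) and 5 higher (26.3%), against 22.8% and 20% of all genes. The higher count was 3 with the read-file number as a factor. Abcc3, a pump of the sinusoidal membrane, was at 138, 156 and 144 FPKM with TCPOBOP and 23.2, 28.3 and 30.1 FPKM with CITCO (log2 difference -2.39 ± 0.12, limma adjusted p = 3.3e-12). Abcc4, on the same membrane, was at 18.7, 20.1 and 17.2 against 4.24, 4.17 and 4.70 FPKM (log2 difference -1.87 ± 0.08, limma adjusted p = 3.2e-13). Abcc2, which exports conjugates into bile, was lower at -0.94 and Abcb11, the bile salt pump, at -0.69 (log2). Abcg2 and Abcc6 did not pass the test (-0.12 and 0.05). Of 21 uptake transporters, 6 were lower (28.6%) and 6 higher (28.6%), near the shares of all genes. Slco1a4, an organic anion transporter and CAR target, was at 17.6, 16.5 and 20 against 4.17, 5.57 and 5.93 FPKM (log2 difference -1.62 ± 0.2, limma adjusted p = 3.9e-06). Slc22a7, an organic anion transporter, was higher, at 4.93, 5.11 and 5.08 FPKM with TCPOBOP and 19.1, 19.9 and 21.1 FPKM with CITCO (log2 difference 1.8 ± 0.14, limma adjusted p = 4.5e-09), though lower in hCAR-TG under corn oil (-0.96 ± 0.14, limma adjusted p = 0.0001). Slco1b2, the main bile acid and bilirubin uptake carrier of this list, read 134 to 186 against 163 to 174 FPKM (log2 difference 0.02, -0.39 to 0.42, limma adjusted p = 0.96), and it was called higher with the read-file number as a factor (1.04, limma adjusted p = 0.00049).

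Of 18 tested genes that supply heme and electrons to the P450 enzymes, 9 were lower (50%) and 2 higher (11.1%), with a median of -0.18. The shares over all genes were 22.8% and 20%. Por, the reductase that passes electrons to microsomal P450s, was at 424, 503 and 449.6 FPKM with TCPOBOP and 179, 190.3 and 196 FPKM with CITCO (log2 difference -1.28 ± 0.15, limma adjusted p = 1.5e-06). Alas1, the rate-limiting enzyme of heme synthesis in liver, was at 193, 196 and 215 against 65.2, 67.8 and 69.5 FPKM (log2 difference -1.56 ± 0.44, limma adjusted p = 0.0093), though not called with the read-file number as a factor (-1.58, limma adjusted p = 0.16) or without the libraries that carry pancreatic transcripts (-1.56, limma adjusted p = 0.052). Cpox, a later enzyme of heme synthesis, was the opposite at 29.8, 23.7 and 25.8 against 52.8, 55.5 and 52.8 FPKM (log2 difference 1.0 ± 0.08, limma adjusted p = 5.4e-09). Ephx1 is both a CAR target and a member of the next list. Targets of NRF2, the regulator of antioxidant defence, gave 11 lower (57.9%) and 1 higher (5.26%) of 19 (median -0.31). Nqo1, its most used marker, read 14.3 to 16.7 against 13.2 to 15.7 FPKM (log2 difference -0.08, -0.41 to 0.25, limma adjusted p = 0.73).

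The growth arrest genes Gadd45a and Gadd45b, CAR targets outside metabolism, were lower too. Gadd45a, a stress-responsive regulator of growth arrest, was at 23.5, 24.6 and 26.9 FPKM with TCPOBOP and 6.32, 5.75 and 5.73 FPKM with CITCO (log2 difference -1.91 ± 0.1, limma adjusted p = 1.2e-11). Gadd45b, a relative that is known as a coactivator of CAR, was at 10.04, 10.7 and 12.3 against 5.30, 4.33 and 4.76 FPKM (log2 difference -1.05 ± 0.24, limma adjusted p = 0.002). The 10 tested targets that did not pass the test were Gstp1, Nqo1, Ugt1a9, Sult3a1, Gsta2, Cyp1a2, Tuba8, Cyp2b9, Cyp17a1 and Meg3. Of these, Gstp1 and, on the higher side, Meg3 (2.01, limma adjusted p = 9.1e-05) were called with the read-file number as a factor. Sult3a1 was listed at 0 in all CITCO libraries and near 0 in all TCPOBOP libraries, so the newborn data carry no comparison for it.

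Metallothioneins, small cysteine-rich proteins that bind zinc and copper, had the 2 highest differences among called genes. Mt2 was at 54.5, 108 and 39.99 FPKM with TCPOBOP and 653, 886 and 726 FPKM with CITCO, without overlap, and the CITCO mean was 11.2-fold the TCPOBOP mean (log2 difference 3.57 ± 0.73, limma adjusted p = 0.00099). Mt1 was at 163, 258 and 121 FPKM with TCPOBOP and 1051, 1588 and 1289 FPKM with CITCO (log2 difference 2.9 ± 0.49, limma adjusted p = 0.00017). Under corn oil, Mt1 read 226, 189 and 416 FPKM in WT and 526, 586 and 1171 FPKM in hCAR-TG, and Mt2 read 87.7, 72.02 and 162 and 272, 343 and 318 FPKM. Those corn oil differences did not pass the test (limma adjusted p = 0.071 for Mt1 and 0.19 for Mt2), and neither did the differences between ligand and corn oil (limma adjusted p = 0.11 and 0.15). With the read-file number as a factor the ligand differences were 1.82, limma adjusted p = 0.12, for Mt1 and 3.52, limma adjusted p = 0.062, for Mt2. The rank of Mt2 by mean level was 880 with TCPOBOP and 61 with CITCO.

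The genes lie side by side on chromosome 8, and their promoters are shown because the members moved together and metallothionein genes are known to be driven through metal response elements bound by MTF1. Windows of 250 bases that end at the RefSeq start of each gene were read from build GRCm38.p6, at chr8:94178839-94179088 for Mt1 and chr8:94172368-94172617 for Mt2, both on the plus strand. Capitals mark matches to the element core, TGCACNC or TGCGCNC, searched on both strands.
Mt1: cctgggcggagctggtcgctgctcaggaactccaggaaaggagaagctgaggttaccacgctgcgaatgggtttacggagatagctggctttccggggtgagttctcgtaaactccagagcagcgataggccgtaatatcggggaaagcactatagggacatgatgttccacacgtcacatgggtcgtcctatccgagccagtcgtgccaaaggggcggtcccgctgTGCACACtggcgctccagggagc
Mt2: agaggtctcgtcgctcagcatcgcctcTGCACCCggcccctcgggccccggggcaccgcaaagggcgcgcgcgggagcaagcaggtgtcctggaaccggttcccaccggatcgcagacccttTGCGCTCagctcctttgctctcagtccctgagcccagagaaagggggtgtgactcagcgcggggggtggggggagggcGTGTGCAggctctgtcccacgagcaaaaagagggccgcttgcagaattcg
The Mt1 window held 1 match, 23 bases before the start, and the Mt2 window held 3, at 223, 128 and 50 bases before the start, the nearest of them on the minus strand. Among 32851 RefSeq windows of this length, 21.4% held at least 1 match and 5.17% held at least 2. Bases after the RefSeq start were not searched, so these counts do not give the number of elements in either promoter. A match describes the letters only and says nothing of binding in these livers.

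Among the other genes that ranked highest, Bhmt, which remethylates homocysteine with betaine, was at 512, 434 and 481 FPKM with TCPOBOP and 2057, 2190.3 and 2200.2 FPKM with CITCO (log2 difference 2.18 ± 0.16, limma adjusted p = 1.4e-09). Its corn oil levels were 952, 1169.8 and 1187 FPKM in WT and 985, 1012 and 879 FPKM in hCAR-TG, which lie between the ligand groups. Got1, the cytosolic aspartate aminotransferase, was at 24.1, 27.1 and 22.5 against 126, 127 and 130.2 FPKM (log2 difference 2.34 ± 0.17, limma adjusted p = 1.6e-09), also with both corn oil groups between, at 54.05 to 60.1 and 35.5 to 63.6 FPKM. Etnppl, an ethanolamine phosphate lyase, was at 3.79, 2.54 and 3.78 against 30.4, 26.7 and 30.7 FPKM (log2 difference 2.8 ± 0.2, limma adjusted p = 1.4e-09), and Rdh16, a retinol dehydrogenase, was at 4.38, 5.12 and 4.06 against 39.6, 39.4 and 40.7 FPKM (log2 difference 2.89 ± 0.15, limma adjusted p = 7.5e-12). G0s2, an inhibitor of triglyceride lipolysis, was at 19.4, 21.5 and 16.9 against 77.5, 96.7 and 87.5 FPKM (log2 difference 2.12 ± 0.3, limma adjusted p = 2e-05).

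**Figure D3:**
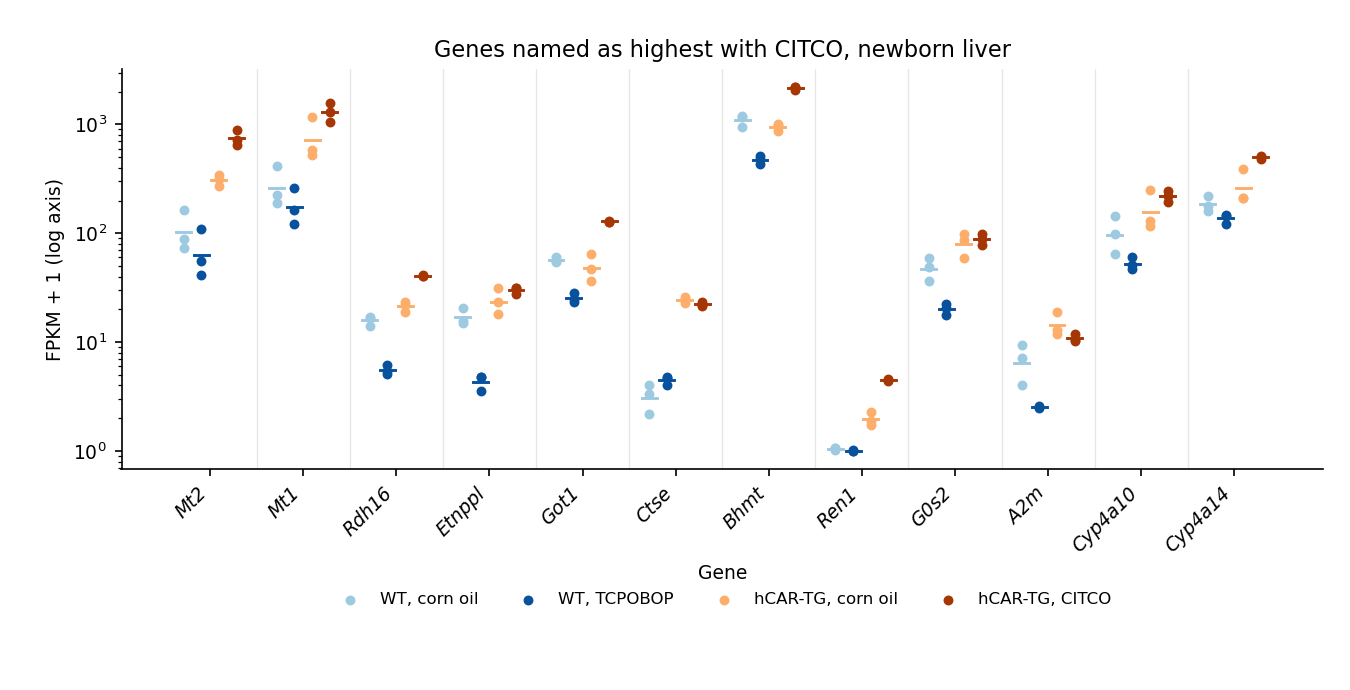
Points are single libraries and short bars are means of log2(FPKM + 1) for the 12 genes with the highest CITCO minus TCPOBOP differences, in the 4 newborn groups, on a log axis of FPKM + 1. CITCO libraries lie above TCPOBOP libraries for all 12 genes, which were chosen for this, and for Bhmt, Got1 and Rdh16 the corn oil libraries of both genotypes lie between them.

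Some of the highest genes differed already without ligand. Ctse, an aspartic protease, was at 3.79, 3.68 and 3.02 FPKM with TCPOBOP and 22.6, 20.8 and 20.5 FPKM with CITCO (log2 difference 2.31 ± 0.16, limma adjusted p = 1.2e-09), and at 1.18, 2.37 and 3.02 FPKM in WT and 22.01, 23.7 and 25.1 FPKM in hCAR-TG under corn oil (2.99 ± 0.16, limma adjusted p = 3.3e-10). A2m, a plasma protease inhibitor, was at 1.59, 1.55 and 1.49 against 9.55, 10.9 and 9.25 FPKM (log2 difference 2.1 ± 0.2, limma adjusted p = 6.9e-08), with a corn oil difference of 1.14 ± 0.2, limma adjusted p = 0.00055. Ren1, the renin gene, was at 0 to 0.0183 FPKM with TCPOBOP, at 3.43, 3.62 and 3.45 FPKM with CITCO (log2 difference 2.16 ± 0.12, limma adjusted p = 2e-11) and at 0.733 to 1.29 FPKM in hCAR-TG with corn oil, against 0.0186 to 0.0652 FPKM in WT with corn oil.

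Genes of fatty acid oxidation and targets of PPARalpha were higher with CITCO. Of 37, 23 were higher and 6 lower, against 20% and 22.8% of all genes, with a median of 0.35. Ehhadh, a peroxisomal beta-oxidation enzyme, was at 39.2, 40.4 and 43.3 FPKM with TCPOBOP and 79.7, 92.2 and 85.8 FPKM with CITCO (log2 difference 1.05 ± 0.13, limma adjusted p = 1.5e-06). Etfdh, which passes electrons from beta-oxidation to the respiratory chain, was at 59.5, 61.6 and 64.7 against 117, 113 and 112 FPKM (log2 difference 0.87 ± 0.07, limma adjusted p = 5.1e-09). Hadha and Hadhb, the subunits of the mitochondrial trifunctional protein, were higher by 0.49 and 0.59 (log2). With the read-file number held as a factor the list gave 9 higher and 7 lower. Under corn oil 2 were higher and 1 lower.

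The urea cycle, which turns ammonia into urea, showed 8 higher (66.7%) and 0 lower of 12 genes (median 0.52). The shares over all genes were 20% and 22.8%. Asl, which releases arginine, was at 86.2, 102 and 84.7 FPKM with TCPOBOP and 185, 203 and 213 FPKM with CITCO (log2 difference 1.13 ± 0.09, limma adjusted p = 3.1e-09). Arg1, which cleaves arginine to urea, was at 171, 189 and 167 against 336, 344 and 357 FPKM (log2 difference 0.97 ± 0.07, limma adjusted p = 1.8e-09). Cps1, which fixes ammonia in the first step, was at 269, 275 and 285 against 396, 396 and 423 FPKM (log2 difference 0.55 ± 0.09, limma adjusted p = 9.4e-05), with corn oil levels of 192 to 224 FPKM in WT and 207 to 276 FPKM in hCAR-TG. The count of higher genes was 5 with the read-file number as a factor. In gluconeogenesis and glycogen turnover 9 of 21 were higher (42.9%) and 3 lower (14.3%). Fbp1, fructose bisphosphatase, was at 409.7, 416 and 395 against 849, 855 and 840.5 FPKM (log2 difference 1.06 ± 0.09, limma adjusted p = 7.3e-09), and Pygl, which breaks down glycogen, was lower at 176, 175 and 183 against 96.98, 94.4 and 97.8 FPKM (log2 difference -0.88 ± 0.07, limma adjusted p = 4.5e-09).

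Genes of hepatocytes around the central vein were mostly higher with CITCO, at 11 of 17 (64.7%) with 2 lower (11.8%) and a median of 0.59. Oat, ornithine aminotransferase, was at 15.4, 16.4 and 15.4 FPKM with TCPOBOP and 47.7, 42.04 and 45.8 FPKM with CITCO (log2 difference 1.46 ± 0.16, limma adjusted p = 5.4e-07). Cldn2, a tight junction protein, was at 5.71, 6.29 and 6.30 against 23.9, 24.4 and 24.7 FPKM (log2 difference 1.84 ± 0.11, limma adjusted p = 4.1e-11). Notum, an inhibitor of Wnt ligands, was at 1.42, 1.38 and 1.56 against 5.84, 6.33 and 5.73 FPKM (log2 difference 1.51 ± 0.09, limma adjusted p = 9.8e-11). Cyp2e1, the pericentral ethanol oxidase, was lower, at 1800.4, 2129 and 1857 against 1076, 1048 and 1056 FPKM (log2 difference -0.86 ± 0.11, limma adjusted p = 3.3e-06). Genes of bile acid synthesis gave 3 higher (20%) and 4 lower (26.7%) of 15, near the 20% and 22.8% of all genes. Cyp27a1 and Cyp7b1, of the alternative pathway, were lower at -1.0 and -1.12 (log2), the latter not called with the read-file number as a factor (-1.08, limma adjusted p = 0.058).

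Beyond the CAR targets, large negative differences included lipoprotein, iron and signalling genes. Apoa4, an apolipoprotein of chylomicrons that steatotic liver also makes, was at 759, 739 and 1275 FPKM with TCPOBOP and 81.2, 82.3 and 72.98 FPKM with CITCO (log2 difference -3.49 ± 0.25, limma adjusted p = 2.6e-09). Summed intestinal markers, of which Apoa4 is the main part, ran at 890.3, 865 and 1432 FPKM with TCPOBOP and 174, 164 and 152 FPKM with CITCO. Of 15 tested intestinal markers, 4 were lower (26.7%) and 1 higher (6.67%), against 22.8% and 20% of all genes. The lower share was near that of all genes, and the counts were 9 and 0 with the read-file number as a factor. The part of intestinal transcripts in the Apoa4 difference was not tested. Hamp, the iron hormone hepcidin, was at 40.2, 66.6 and 42.2 against 9.48, 2.76 and 3.19 FPKM (log2 difference -3.17 ± 0.86, limma adjusted p = 0.0075), but under corn oil it was higher in hCAR-TG, with a wide spread of 277, 23.7 and 6.28 FPKM against 2.39, 3.24 and 4.32 FPKM in WT (3.12 ± 0.86, limma adjusted p = 0.028). With the read-file number as a factor the Hamp ligand difference changed sign and was not called (0.34, limma adjusted p = 0.85). Trib3, a pseudokinase induced by amino acid and ER stress, was at 16.7, 20.9 and 19.96 against 1.51, 1.76 and 1.62 FPKM (log2 difference -2.93 ± 0.27, limma adjusted p = 9.4e-08), and Rgs16, a brake on G protein signalling, was at 14.8, 17.7 and 18.01 against 1.07, 2.36 and 0.921 FPKM (log2 difference -2.9 ± 0.47, limma adjusted p = 0.00011).

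Cholesterol synthesis genes, driven by SREBP2, gave 16 lower (64%) and 0 higher of 25 with a median of -0.49. The shares over all genes were 22.8% and 20%. Insig1, the sterol-sensing anchor, was at 62.5, 67.3 and 63.8 FPKM with TCPOBOP and 27.03, 34.4 and 28.6 FPKM with CITCO (log2 difference -1.09 ± 0.16, limma adjusted p = 2.3e-05). The lower count was 7 with the read-file number as a factor and 10 without the 2 libraries that carry pancreatic transcripts. Genes of ER stress and protein folding gave 13 lower (54.2%) and 1 higher (4.17%) of 24 (median -0.43). Pdia4 and Pdia6, folding proteins of the ER, were lower at -0.9 and -0.63 (log2), and the lower count was 6 with the read-file number as a factor.

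Of 25 interferon and antigen presentation genes, 15 were lower (60%) and 1 higher (4%), against 22.8% and 20% of all genes (median -0.54). The lower count was 9 with the read-file number as a factor. H2-K1, a class I heavy chain, was at 252, 231 and 288 FPKM with TCPOBOP and 132, 121 and 132 FPKM with CITCO (log2 difference -1.0 ± 0.1, limma adjusted p = 9.3e-08), and Psmb8, an immunoproteasome subunit, was at 33.9, 37.5 and 35.3 against 17.9, 15.4 and 18.2 FPKM (log2 difference -1.01 ± 0.11, limma adjusted p = 7.1e-07). H2-K1 was also lower in hCAR-TG under corn oil (-0.42 ± 0.1, limma adjusted p = 0.0066). Acute phase genes gave 10 lower (38.5%) and 3 higher (11.5%) of 26, and 2 and 2 with the read-file number as a factor. Without the libraries that carry pancreatic transcripts 6 were lower. Crp was lower at -0.59 and Hpx, which carries free heme, at -0.48 (log2), while Itih3, a plasma protease inhibitor, was higher by 0.89. Jun, an immediate early transcription factor, was at 9.71, 13.9 and 10.7 against 4.004, 3.80 and 3.88 FPKM (log2 difference -1.33 ± 0.34, limma adjusted p = 0.0041), and was not called with the read-file number as a factor (-0.31, limma adjusted p = 0.71).

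Markers of other liver cells differed in direction from list to list. Kupffer cell and macrophage genes gave 6 lower (35.3%) and 0 higher of 17 (median -0.19), against 22.8% and 20% of all genes. With the read-file number as a factor they gave 2 lower and 5 higher. Csf1r, the macrophage growth factor receptor, was at 71.6, 75.95 and 69.9 FPKM with TCPOBOP and 57.5, 49.9 and 52.7 FPKM with CITCO (log2 difference -0.44 ± 0.1, limma adjusted p = 0.0023), not called with the read-file number as a factor (-0.13, limma adjusted p = 0.56). Sinusoidal endothelial genes gave 11 lower (57.9%) and 3 higher (15.8%) of 19. Clec4g, a lectin of these cells, was at 35.8, 42.2 and 40.6 against 26.1, 28.1 and 29.2 FPKM (log2 difference -0.49 ± 0.09, limma adjusted p = 0.00016). Stellate cell and fibroblast genes gave 7 higher (43.8%) and 1 lower (6.25%) of 16. Dcn, a matrix proteoglycan, was at 60.1, 45.8 and 63.04 against 88.7, 82.3 and 86.2 FPKM (log2 difference 0.61 ± 0.11, limma adjusted p = 0.00016). Lymphocyte genes gave 6 lower (60%) and 0 higher of 10. No cholangiocyte gene of 8 and no pancreatic gene of 22 was called by limma in either direction, while 4 pancreatic genes were called lower without CITCO replicate 1 and 3 cholangiocyte genes were called lower with the read-file number as a factor. At an unadjusted p below 0.05 limma gave 0 lower and 0 higher cholangiocyte genes and 0 lower and 0 higher pancreatic genes, and limma with array weights called 5 lower and 1 higher cholangiocyte genes and 0 lower and 0 higher pancreatic genes.

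Erythroid and platelet genes were higher in the livers with human CAR. Newborn mouse liver still makes red cells, and 17 of 20 erythroid genes (85%) were higher with CITCO and 0 lower (median 0.87). The shares over all genes were 20% and 22.8%, and under corn oil 8.29% and 2.27%. Slc4a1, the red cell anion exchanger, was at 16.9, 15.7 and 12.04 FPKM with TCPOBOP and 38.98, 42.7 and 37.5 FPKM with CITCO (log2 difference 1.37 ± 0.21, limma adjusted p = 3.4e-05). Rhag, an erythroid membrane channel, was at 2.03, 1.60 and 1.44 against 5.57, 5.41 and 4.50 FPKM (log2 difference 1.2 ± 0.14, limma adjusted p = 1.7e-06), and Klf1, the erythroid transcription factor, at 2.91, 2.43 and 2.28 against 5.76, 6.55 and 5.57 FPKM (log2 difference 0.98 ± 0.14, limma adjusted p = 9.6e-06). Erythroid genes also stood apart without ligand. Slc4a1 was at 4.82, 8.97 and 14.6 FPKM in WT and 38.5, 45.4 and 49.1 FPKM in hCAR-TG with corn oil (2.22 ± 0.21, limma adjusted p = 4.6e-07), and 18 of 20 were higher there (median 1.23). Erythroid transcripts made up 1.38% to 1.75% of all FPKM with TCPOBOP and 2.16% to 2.48% with CITCO, and 1.23% to 1.74% and 2.96% to 3.69% in the corresponding corn oil groups. The higher count with ligand was 11 with the read-file number as a factor. Tfrc, the transferrin receptor, was an exception to the corn oil pattern: it was at 47.7, 31.7 and 41.1 against 79.9, 81.4 and 78.1 FPKM with ligand (log2 difference 0.99 ± 0.23, limma adjusted p = 0.0023), with a corn oil difference of -0.38 (limma adjusted p = 0.35).

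Megakaryocyte and platelet genes gave 6 higher of 6 with ligand and 6 under corn oil, where 20% and 8.29% of all genes were higher. Ppbp, a platelet chemokine, was at 6.80, 6.09 and 6.28 FPKM with TCPOBOP and 22.7, 20.8 and 19.8 FPKM with CITCO (log2 difference 1.58 ± 0.31, limma adjusted p = 0.00047), and at 3.16, 5.56 and 10.7 FPKM in WT and 38.3, 37.6 and 13.6 FPKM in hCAR-TG with corn oil. Neutrophil and granulocyte precursor genes gave 5 higher (31.2%) and 1 lower (6.25%) of 16 with ligand and 13 higher and 0 lower under corn oil. Ctsg, a protease of azurophil granules, was at 0.728, 0.963 and 0.552 FPKM with TCPOBOP and 2.92, 2.23 and 2.26 FPKM with CITCO (log2 difference 0.99 ± 0.19, limma adjusted p = 0.0004), and with the read-file number as a factor it was not called (-0.06, limma adjusted p = 0.83). The higher neutrophil count was 1 with the read-file number as a factor, and it ranged from 2 to 8 as each of the 6 libraries was left out, at 3 without TCPOBOP replicate 3, 2 without CITCO replicate 1 and 8 without CITCO replicate 3.

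**Figure D4:**
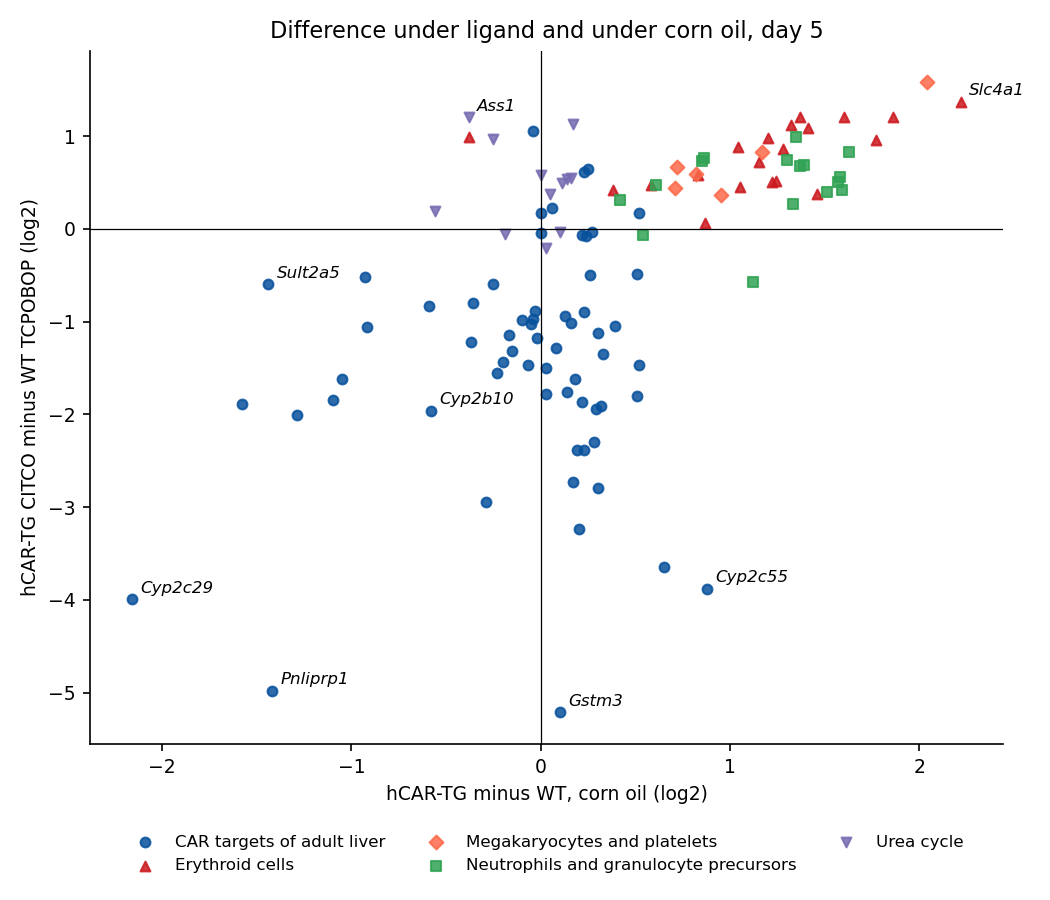
Each point is a gene, with the hCAR-TG minus WT difference under corn oil on the horizontal axis and the CITCO minus TCPOBOP difference on the vertical axis, both in log2 units at day 5. The axes share no library. Most CAR targets lie low near the vertical line, and Cyp2c29 and Pnliprp1 lie low on the left. Platelet genes and most erythroid and neutrophil genes lie at the upper right.

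Genes of fetal liver were higher in part. Afp, the fetal serum albumin, was at 1618, 1943 and 1429 FPKM with TCPOBOP and 5864, 5518 and 4685 FPKM with CITCO (log2 difference 1.69 ± 0.14, limma adjusted p = 1.3e-08), and at 3315, 4333 and 3685 FPKM in WT and 8353, 6618 and 9405 FPKM in hCAR-TG with corn oil (1.1 ± 0.14, limma adjusted p = 2.2e-05). Igf2, a fetal growth factor, was at 754, 608 and 725 against 1356, 1450.2 and 1399 FPKM (log2 difference 1.02 ± 0.09, limma adjusted p = 1.5e-08). The list gave 5 higher (29.4%) and 1 lower (5.88%) of 17, against 20% and 22.8% of all genes. Genes of mature hepatocytes gave 8 higher (32%) and 5 lower (20%) of 25, or 5 and 2 without the libraries that carry pancreatic transcripts. Tat, a postnatal amino acid catabolic enzyme, was at 60.5, 62.6 and 60.5 against 121, 117 and 119 FPKM (log2 difference 0.95 ± 0.17, limma adjusted p = 0.00014).

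Cell cycle genes gave few calls in newborns, with 9 of 52 lower (17.3%) and 6 higher (11.5%) and a median of -0.08. The shares over all genes were 22.8% and 20%. The higher count was 5, 3 and 2 without TCPOBOP replicates 1, 2 and 3 and 1, 2 and 3 without CITCO replicates 1, 2 and 3, and the lower count was between 6 and 7. Cdc20, an activator of mitotic exit, was at 21.9, 24.2 and 21.5 FPKM with TCPOBOP and 13.2, 13.7 and 13.7 FPKM with CITCO (log2 difference -0.7 ± 0.17, limma adjusted p = 0.003), and Tk1, thymidine kinase, was at 44.2, 51.4 and 43.8 against 29.97, 30.97 and 31.1 FPKM (log2 difference -0.58 ± 0.1, limma adjusted p = 0.00012). With the read-file number as a factor the counts were 6 lower and 16 higher, and without the 2 libraries that carry pancreatic transcripts they were 6 and 1.

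**Figure D5:**
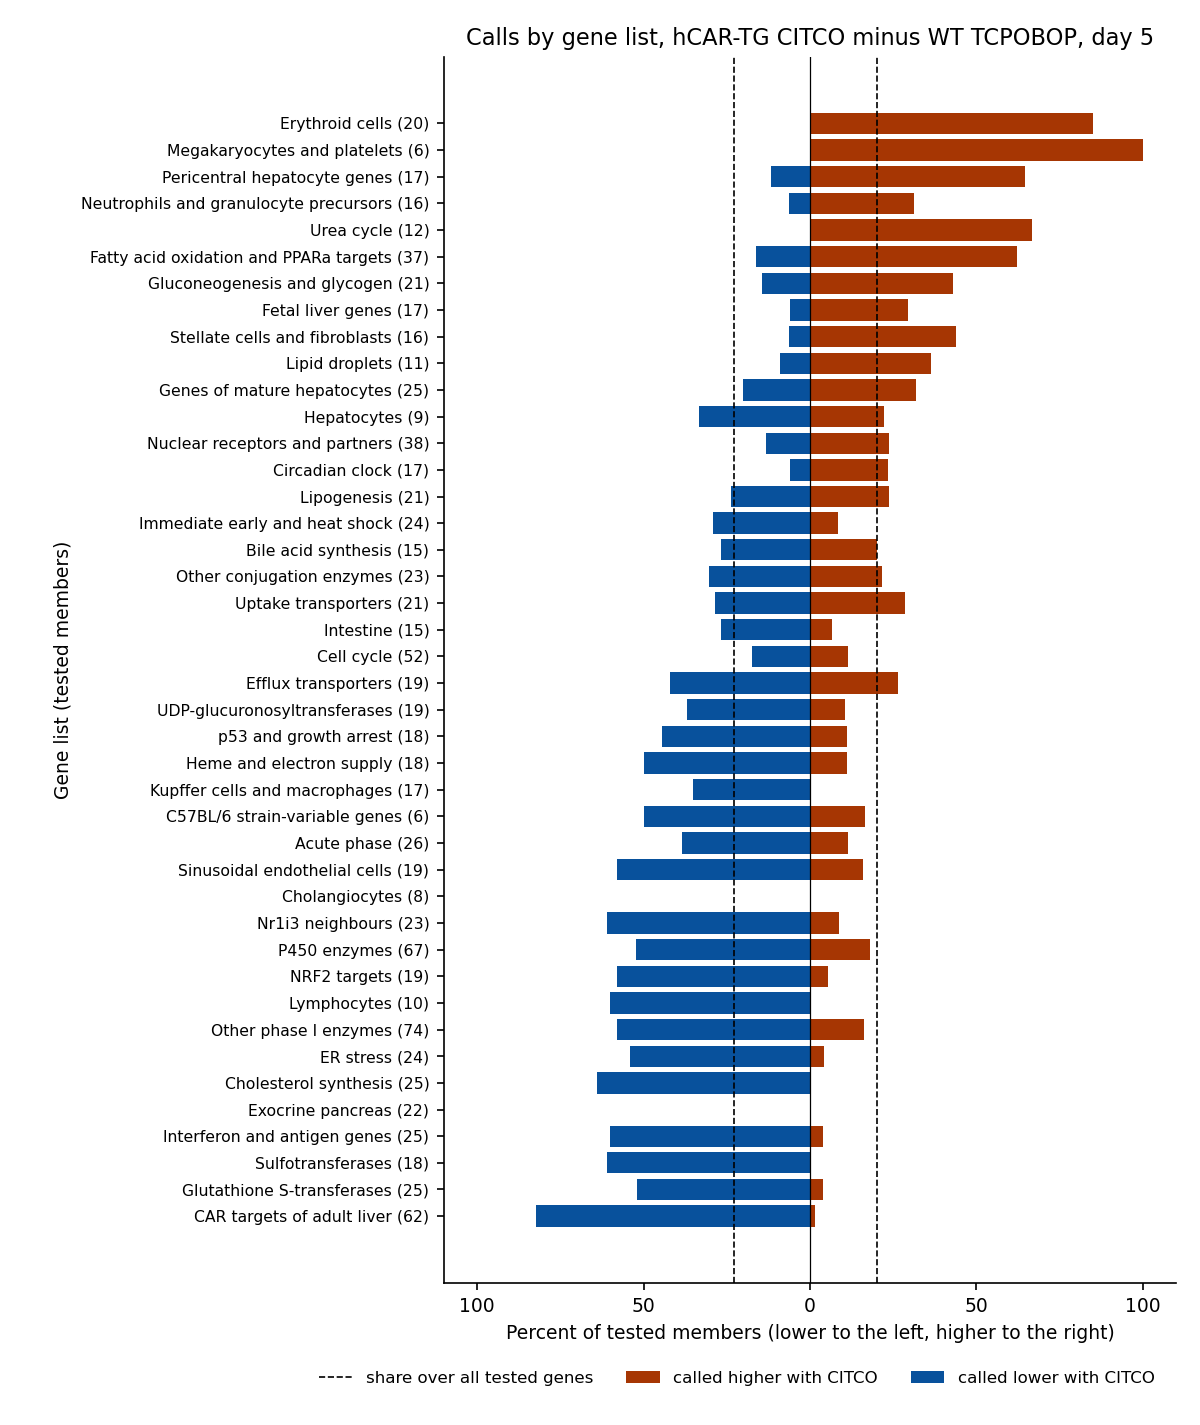
Bars give the percent of tested members of each gene list called lower (left, blue) or higher (right, orange) with CITCO, with the number of tested members in brackets, ordered by median difference, and dashed lines mark the shares over all tested genes, 22.8% and 20%. CAR targets reach furthest to the left with 51 of 62 lower, and megakaryocyte genes furthest to the right with 6 of 6 higher.

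The corn oil groups measure how the genotypes stood without ligand, and they share no library with the ligand comparison. There, 1297 genes (10.6%) differed, 1018 higher (8.29%) and 279 lower (2.27%) in hCAR-TG. After rescaling the libraries by the median of ratios 690 were higher and 391 lower. The count was 801 without WT corn oil replicate 1 and 801 without WT corn oil replicate 2. Of the genes higher with ligand, 283 were also higher under corn oil, which is 11.5% of the former and 27.8% of the latter. Over all genes 8.29% were higher under corn oil and 20% higher with ligand. Another 54 were lower under corn oil, near the 2.27% of all genes. Of the genes lower with ligand, 111 were also lower under corn oil, which is 3.96% and 39.8%, beside 2.27% and 22.8% of all genes. Another 230 were higher under corn oil, near the 8.29% of all genes. Among the 62 CAR targets 9 were lower and 5 higher without ligand, the higher ones near the share of all genes. The lower ones were Pnliprp1, Cyp2c29, Cyp2c37, Cyp2c50, Cyp2c54, Slco1a4, Sult2a1, Sult2a2 and Sult2a5. WT corn oil replicate 2, which carries pancreatic transcripts, is part of this comparison, and its share in the Pnliprp1 difference was not tested. Of the 223 genes lower by at least 2-fold with ligand, 29 were lower and 17 higher under corn oil, the 17 again near the share of all genes.

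At day 60 the same list of CAR targets, chosen with earlier results of these data known, was again mostly lower with CITCO. Over all genes 5370 (43.7%) differed, 3760 lower (30.6%) and 1610 higher (13.1%), with a median of -0.07. After rescaling by the median of ratios the median was 0.00, with 2887 lower and 2512 higher. Of the 62 targets, 48 were lower and 2 higher (median -1.05), and 41 were lower at both ages. The targets made up 13.3% to 15.1% of all FPKM with TCPOBOP and 7.43% to 8.01% with CITCO. Cyp2b10 reached 2760.0, 2625 and 2404 FPKM with TCPOBOP and 1223, 1197 and 1259 FPKM with CITCO (-1.08 ± 0.26, limma adjusted p = 0.0019). Gstm3 reached 11764, 11891 and 9343 against 1739.9, 1935 and 2723 FPKM (-2.38 ± 0.14, limma adjusted p = 2.1e-11). Cyp2c29, so far apart in newborns, was at 6914, 6612 and 6264 against 4886, 4277 and 4172 FPKM in adults (-0.57 ± 0.39, limma adjusted p = 0.26).

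Of the genes called lower in newborns, 1620 were also lower at day 60, which is 57.8% of the newborn set and 43.1% of the adult set, and 160 were higher. Of those called higher in newborns, 622 were higher at day 60, which is 25.4% and 38.6%, and 243 were lower. Over all genes 30.6% were lower and 13.1% higher at day 60, and 22.8% and 20% in newborns. Pericentral genes gave 13 higher and 2 lower of 17 at day 60, and Bhmt remained far apart, at 136, 166 and 218 FPKM with TCPOBOP and 693, 1124 and 920.5 FPKM with CITCO (2.39 ± 0.16, limma adjusted p = 1.4e-10). Cell cycle genes gave 50 lower and 0 higher of 52 at day 60, where Cdc20 was at 39.1, 48.7 and 32.7 against 0.956, 1.80 and 1.08 FPKM (-4.17 ± 0.17, limma adjusted p = 2e-13). Erythroid genes gave 4 higher and 1 lower at day 60. Cyp2b9, which did not pass the test in newborns, was at 73.2, 104 and 89.6 against 1.71, 1.63 and 1.85 FPKM at day 60 (-5.03 ± 0.58, limma adjusted p = 1.8e-06).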

How the data were processed

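RNA was extracted with RNA Bee and made into stranded mRNA libraries with the TruSeq kit, and libraries were run on a HiSeq instrument, per the labels' protocols. The authors deposited 1 table per library with an FPKM value and its confidence bounds for each gene, on build mm10 per the submitters' processing notes; the aligner and the quantifier are not given in the sources used here. Entries that share a symbol were summed, and 5 genes with a failed estimate were left out. Values were tested as log2(FPKM + 1) with limma 3.58.1 in R 4.3.3, with the 8 groups in 1 model (trend and robust, 16 residual degrees of freedom, two-sided) and Benjamini-Hochberg adjustment over 12282 genes, called below 0.05. The log scale understates changes of genes with low values. The fit was tested on simulated data. Read depth is not given, so no counting intervals are stated. Alternatives were another pseudocount, other filters, a rescaling, array weights, the compared libraries alone, each library left out, a replicate block and the read-file number as a factor. The 3 added after seeing the data left out hCAR-TG corn oil replicate 3 from the shared spread or both ligand libraries with pancreatic transcripts. The last combined rescaling with leaving out hCAR-TG corn oil replicate 3.

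Members and gene lists were chosen with earlier results of these data known. Genes named are Nr1i3, Nr1i2, Cyp2b10, Nnt, the 12 highest and 12 lowest called genes whose groups do not overlap, up to 4 called members of each list by lowest adjusted p, tested CAR targets, and the 2 most abundant members not called in each enzyme or transporter list; the text prints part of these. Ctrb1, Klf1, Slc4a1 and Tfrc, and some genes of the closing section where stated, were chosen after their values were seen.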

Additional observations from a re-analysis of the deposited data

Results flagged for a closer look

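Some named genes had newborn and adult differences of opposite sign with no overlap between the ligand groups at either age, as did 1170 of 12282 tested genes (9.53%). Whether the ages differ was not tested. Higher with CITCO at day 5 and lower at day 60 were Nr1i3 (0.99 and -1.06, log2), Tfrc (0.99 and -1.77), Cyp1a1 (1.05 and -0.63), Tuba8 (0.17 and -1.1), Hadha (0.49 and -0.22), Hadhb (0.59 and -0.14), Nr1i2 (0.07 and -0.15) and Cyp1a2 (0.17 and -0.21).

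Lower at day 5 and higher at day 60 were 2 enzymes of the alternative bile acid pathway, Cyp7b1 (-1.12 and 1.24) and Cyp27a1 (-1.0 and 0.66), and the pericentral oxidase Cyp2e1 (-0.86 and 1.59). The iron hormone gene Hamp (-3.17 and 1.4) had the widest spread of these. The others were Abcb11 (-0.69 and 0.57), Clec4g (-0.49 and 0.53), H2-K1 (-1.0 and 0.4), Gstp1 (-0.49 and 0.46), Ugt2b1 (-0.29 and 0.72), Crp (-0.59 and 0.17), Pon1 (-0.17 and 0.28) and Abcg2 (-0.12 and 0.26). In the newborn comparison Tuba8, Nr1i2, Cyp1a2, Gstp1, Ugt2b1, Pon1 and Abcg2 did not pass the test.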

How the results depend on the processing

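The 5252 calls lay between 3684 and 6169 under the other planned and added settings, except for 8217 with array weights and 328 when a call also needed a difference of at least 1 (log2). Leaving out each library gave 4207 to 4881. Besides array weights and the size rule, corn oil calls (1297) became 191 with the compared libraries alone and 817 with a filter of 5 FPKM, and ranged from 801 to 1745 as each library was left out. Array weights gave 4571 corn oil calls and the size rule 130. The per-gene difference between ligand and corn oil (4142 calls) gave 6352 with array weights and 378 with the size rule, and 3351 to 4624 with a library left out. Adult calls (5370) became 644 with the size rule and ranged from 4562 to 4966 with a library left out. Rescaling split the adult calls 2512 higher to 2887 lower, against 1610 to 3760, and the corn oil calls 690 to 391 (931 to 661 also without hCAR-TG corn oil replicate 3). The causes were not tested.

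Replicate numbers did not pair the samples: deviations of same-numbered ligand libraries correlated at -0.053, -0.185 and 0.266, and not every sample correlated best with its own number. A replicate block gave 5205 newborn, 1219 corn oil, 4007 ligand against corn oil and 5323 adult calls. With the read-file number as a factor, which rests on 1 library, Nr1i2 was at -0.44, Hamp at 0.34 and Ctsg at -0.06, each opposite to its main sign. Of 115 called genes named in the text, 99 kept the call and sign in all 16 settings where they were tested. Read counts are not given, and the deposited confidence bounds were not used in the tests, so the precision of low values was not examined.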

Other observations

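Of 21 lipogenic genes, 5 were higher with CITCO (23.8%) and 5 lower (23.8%), near the 20% and 22.8% of all genes. Elovl5, a fatty acid elongase, was at 82.03, 65.7 and 82.8 FPKM with TCPOBOP and 150.3, 159.7 and 152 FPKM with CITCO (log2 difference 1.0 ± 0.13, limma adjusted p = 2.8e-06), and Me1, which supplies NADPH, was at 15.2, 14.1 and 15.9 against 7.54, 7.69 and 7.18 FPKM (log2 difference -0.92 ± 0.13, limma adjusted p = 8.4e-06). Elovl5 was lower in hCAR-TG under corn oil, at 165, 145 and 161 FPKM in WT and 105, 103 and 86.5 FPKM in hCAR-TG (-0.67 ± 0.13, limma adjusted p = 0.0011). Of 11 lipid droplet genes, 4 were higher (36.4%) and 1 lower (9.09%), with 2 higher when the read-file number was a factor. Plin5, a droplet coat protein, was at 5.77, 5.68 and 7.13 against 15.1, 15.2 and 15.8 FPKM (log2 difference 1.19 ± 0.12, limma adjusted p = 8.4e-08). Circadian genes gave 4 higher (23.5%) and 1 lower (5.88%) of 17, against 20% and 22.8% of all genes, so the higher share was near that of all genes. The higher count was 2 without the libraries that carry pancreatic transcripts. Hlf, an output factor of the circadian clock, was at 4.42, 3.28 and 3.60 against 9.15, 8.99 and 8.83 FPKM (log2 difference 1.07 ± 0.12, limma adjusted p = 3.7e-07). Nfil3, its opponent, was at 11.02, 11.8 and 11.9 against 6.31, 6.39 and 5.88 FPKM (log2 difference -0.81 ± 0.17, limma adjusted p = 0.001). Nfil3 was not called with the read-file number as a factor (-0.72, limma adjusted p = 0.091). The hour of collection is not given. Targets of p53 gave 8 lower (44.4%) and 2 higher (11.1%) of 18, with Bax, a promoter of apoptosis, lower at -0.46 (log2).

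Genes outside every list, chosen after their values were seen, also stood apart. Nup205, a scaffold subunit of the nuclear pore, was at 28.4, 29.9 and 28.8 FPKM with TCPOBOP and 5.62, 5.67 and 5.23 FPKM with CITCO (log2 difference -2.21 ± 0.08, limma adjusted p = 3.3e-14), with corn oil levels of 4.48 to 5.19 FPKM in WT and 5.002 to 6.31 FPKM in hCAR-TG. At day 60 it was at 61.8, 62.2 and 55.2 FPKM with TCPOBOP and 2.30, 2.60 and 2.35 FPKM with CITCO (-4.15 ± 0.08, limma adjusted p = 5.8e-19). Cldn10, a tight junction protein, was at 6.26, 3.81 and 7.52 FPKM with TCPOBOP and 0.0941, 0.167 and 0.0677 FPKM with CITCO in newborns (log2 difference -2.59 ± 0.13, limma adjusted p = 4.6e-12), and its means at day 60 were 0.0300 and 0.0382 FPKM. Dusp9, a phosphatase of MAP kinases, was at 22.1, 21.5 and 19.7 against 2.34, 1.99 and 2.22 FPKM (log2 difference -2.8 ± 0.13, limma adjusted p = 1.4e-12), and Smpd3, a neutral sphingomyelinase, was at 17.99, 17.2 and 16.5 against 1.42, 1.38 and 1.69 FPKM (log2 difference -2.87 ± 0.16, limma adjusted p = 1.9e-11). Retnla and Ear1, products of alternatively activated macrophages and eosinophils, were lower with CITCO at -2.62 and -2.68 (log2) and lower under corn oil at -1.83 and -2.04.

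Entpd4, which differs between C57BL/6 substrains, was at 27.8, 30.8 and 27.9 FPKM with TCPOBOP and 12.7, 12.9 and 12.1 FPKM with CITCO (log2 difference -1.14 ± 0.06, limma adjusted p = 1.5e-11). Under corn oil it was at 23.9, 22.5 and 22.5 FPKM in WT and 11.5, 11.4 and 11.4 FPKM in hCAR-TG (-0.95 ± 0.06, limma adjusted p = 1.6e-09), and at day 60 at 21.4 to 22.4 against 11.3 to 12.3 FPKM. Of 6 tested genes listed as variable between C57BL/6 strains, 3 were lower (50%) and 1 higher (16.7%) with ligand, against 22.8% and 20% of all genes. Under corn oil 1 was lower and 0 higher (median 0.0), and 4 were lower and 1 higher at day 60. Nnt, given above, did not pass the test in newborns. The substrain of either line is not given.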
